A study of Gallus gallus with 20 samples.

Results

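The insulin-like growth factor (IGF) system is described here through 10 genes, chosen by name from the 28021 genes of the deposited count table, and each name matched 1 row. They are the ligand gene IGF2, the receptor genes IGF1R, IGF2R and GHR, the signalling brake SOCS2, and the binding protein genes IGFBP2, IGFBP3, IGFBP4, IGFBP5 and IGFBP7. RNA came from the pituitary gland and the hypothalamus of male Korat chickens, a slow-growing line, raised in individual cages with free access to feed until 10 weeks of age. From 200 males, birds of extremely low and extremely high residual feed intake (RFI, feed eaten beyond what weight and growth predict) were chosen; the labels name no other treatment or genotype. Each library is a pool of RNA, and there were 5 libraries in each of 4 groups, namely pituitary low RFI, pituitary high RFI, hypothalamus low RFI and hypothalamus high RFI. The hypothalamus pools came from 10 birds per RFI group. For the pituitary the design text gives 8 birds and 4 pools of 2 birds per group, while the titles list 5 libraries; the 5 were used as labelled, and p-values measure the spread between these libraries, which may in part be technical.

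IGF1 and IGF2 are small growth factors related to insulin, and both signal through the tyrosine kinase receptor encoded by IGF1R. Growth hormone from the pituitary acts on its receptor GHR, above all in the liver, to raise IGF1, and IGF1 in turn lowers growth hormone release at the pituitary and hypothalamus. Binding proteins carry IGFs in blood and tissue fluid, prolong their life and keep them from the receptor until proteases release them. SOCS2 is induced by growth hormone signalling and targets GHR for degradation, and so limits growth hormone action.

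The pituitary libraries held 10262777 to 11960994 counts and the hypothalamus libraries 11418600 to 12647034. Levels below are in CPM (counts scaled to a common library size, on 1 scale for all 20 libraries). Where genes are compared with each other they are in FPKM (fragments scaled to gene length and a factor for each library, as deposited). Summed over 10 markers of pituitary endocrine cells, the pituitary libraries reached 20991 to 102690 CPM and the hypothalamus libraries 13.996 to 67.8. Some libraries held transcripts of other tissues. Pituitary low RFI library 1 had the lowest endocrine sum (20991 CPM) and the highest pituitary sum of 6 oligodendrocyte markers, 24356 CPM against 442 to 11756 in the other pituitary libraries. Hypothalamus low RFI library 2 held 27814 CPM over 7 markers of choroid plexus and pineal, against 26.7 to 122 in the other hypothalamus libraries. Earlier work on these data had also set apart pituitary low RFI libraries 2 and 4 and high RFI library 4. Their oligodendrocyte sums were 2393, 834 and 3603 CPM, in that order. Over 9 neuron markers they held 2760, 817 and 2428 CPM, against 595 to 938 in the pituitary libraries kept. Pituitary high RFI library 1, with 11756 CPM of oligodendrocyte markers, was kept. Values without the 5 libraries set apart are given for some results, and values not given can differ as well. Pituitary low RFI is then libraries 3 and 5 only, against high RFI libraries 1, 2, 3 and 5.

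In the pituitary the order of the 10 genes by mean FPKM was SOCS2, IGFBP7, IGFBP2, IGFBP5, IGFBP4, GHR, IGFBP3, IGF2R, IGF2 and IGF1R. SOCS2 averaged 119.8 ± 54.1 FPKM and IGFBP7 78.2 ± 18.5 (SD, n = 10 each). IGF2 averaged 6.67 ± 3.05 FPKM and IGF1R 4.57 ± 0.684. The ranges of each neighbouring pair in this order overlapped. In each of the 10 libraries, however, IGFBP7 was above IGFBP2 and IGFBP2 above IGFBP5. The other neighbours kept the pituitary order in 6 to 9 libraries. In the hypothalamus the order was IGFBP2, IGFBP7, IGFBP5, IGF2R, IGFBP4, IGFBP3, GHR, IGF2, IGF1R and SOCS2. There IGFBP2 averaged 63.1 ± 9.81 FPKM, IGFBP7 62.6 ± 53.2, IGF2 3.25 ± 1.49 and IGF1R 2.91 ± 0.688. SOCS2, first in the pituitary, was last in the hypothalamus at 2.88 ± 0.483 FPKM. These orders depend on the listed gene lengths, 802 bases for SOCS2, 3215 for IGFBP7 and 8996 for IGF2R. In CPM, pituitary libraries held 33.1 to 172 of SOCS2 and 155 to 345 of IGFBP7. Separate ranges between neighbours were seen in the hypothalamus for IGFBP7 against IGFBP5 and for IGFBP3 against GHR, and the other neighbours overlapped. Those others kept the hypothalamus order in 6 to 9 of the 10 libraries.

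**Figure D1:**
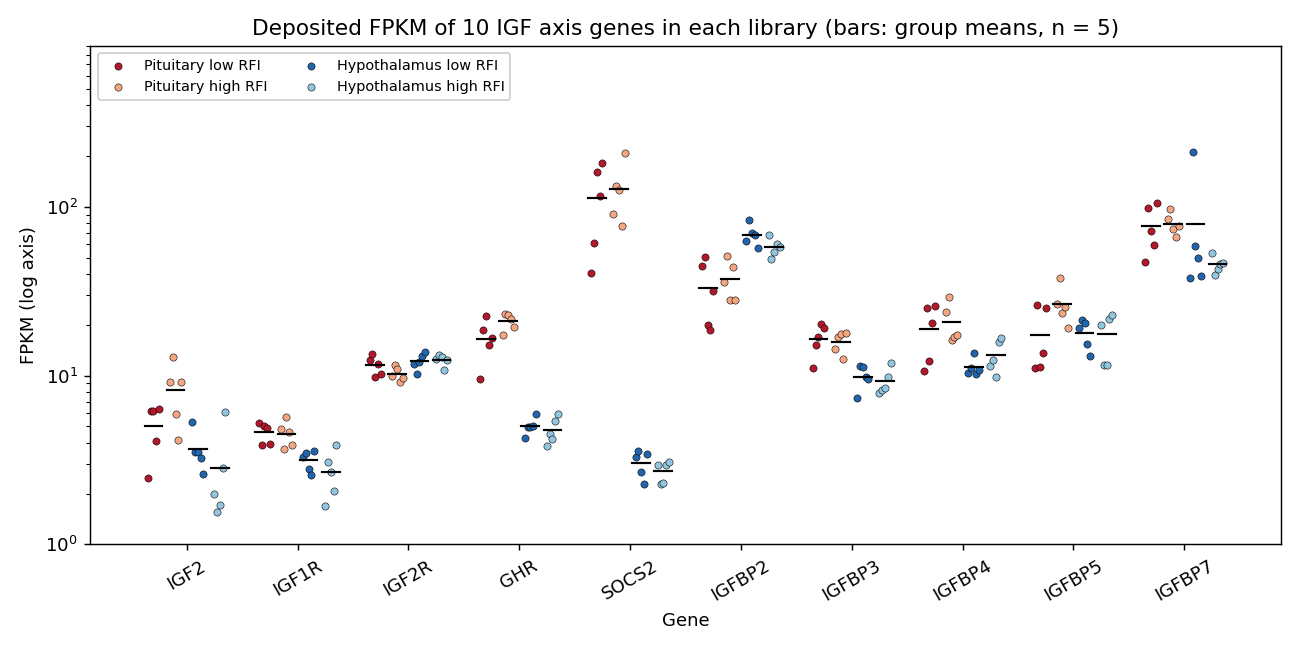
Deposited FPKM (log axis) of the 10 genes in each of the 20 libraries, with black bars at the group means of 5 libraries. SOCS2 and GHR lie higher in all pituitary libraries than in any hypothalamus library, IGFBP2 lies mostly lower, and 1 hypothalamus low RFI library carries IGFBP7 at 213 FPKM.

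The comparison of tissues asked where along the growth hormone and IGF pathway the pituitary and hypothalamus differ. IGF2, IGF1R, GHR, SOCS2, IGFBP3 and IGFBP4 rose in the pituitary and IGFBP2 fell, while IGF2R, IGFBP5 and IGFBP7 did not pass. The test was edgeR's quasi-likelihood test over 16747 genes with p-values adjusted by Benjamini-Hochberg; genes under 0.05 were called. It called 7 of the 10 genes, and 70.8% of all genes tested, so the share called is near the background. By direction, 6 rose against a background of 38.3% higher, and 1 fell against 32.5% lower. The median log2 fold of the 10 was 0.71, and that of all genes tested 0.07. Bulk RNA cannot tell a difference in cell numbers from a difference in RNA per cell.

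The ligand IGF2 (ENSGALG00000035282, GRCg6a chromosome 5, 13971786 to 13980128) is a fetal and adult growth factor. It had 2.99, 7.45 and 15.6 CPM as lowest, median and highest value in pituitary libraries, against 1.83, 3.59 and 7.32 in hypothalamus libraries. The tissues overlapped, and the mean was 8.05 ± 3.67 CPM in pituitary libraries and 3.85 ± 1.79 in hypothalamus libraries (SD, n = 10 each). The log2 fold was 1.03 with a standard error (SE) of 0.27 (edgeR, adjusted p = 0.00226). Counts behind IGF2 were low, 37 to 182 reads per pituitary library and 21 to 82 per hypothalamus library. The other ligand, IGF1, which the table lists as IGF-I, was close to the detection limit in both tissues, with 34 reads over the 10 pituitary libraries and 40 over the 10 hypothalamus libraries. It was not tested after the low-count filter. Insulin had 0 reads in the pituitary and 2 in the hypothalamus.

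Of 13 tested markers of meninges and fibroblasts (16 listed), 8 rose in the pituitary and 1 fell. Their sum was 1187 to 16016 CPM in pituitary libraries and 431 to 1347 in hypothalamus libraries, and no marker of the 13 was at 0 in a library. Pituitary high RFI library 2 had the highest sum and the highest IGF2 (15.6 CPM). Pituitary low RFI library 1 had the lowest of both among pituitary libraries (1187 and 2.99 CPM). Between these extremes the 2 orders differed. High RFI libraries 1 and 5 had lower sums (4512 and 4172 CPM) than low RFI libraries 2 and 5 (7926 and 7734 CPM). IGF2 was higher in those high RFI libraries, at 11.2 and 11.02 CPM against 7.43 and 7.61 CPM. The part of these markers in the tissue difference of IGF2 was not tested. Without pituitary high RFI library 2 the IGF2 log2 fold was 0.92 (edgeR, adjusted p = 0.00559; 0.00012 to 0.00779 over 26 alternatives).

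GHR (ENSGALG00000014855, chromosome Z, 13428369 to 13558411) encodes the growth hormone receptor, whose mutations cause sex-linked dwarfism in chickens. It had 27.6, 54.4 and 66.3 CPM as lowest, median and highest value in pituitary libraries, against 10.6, 13.8 and 16.96 in hypothalamus libraries. All pituitary libraries lay above all hypothalamus ones. Of the 10 genes, 2 (GHR and SOCS2) showed no overlap between tissues, against 18.9% of all genes tested; 2 were above (10.9% of all genes) and 0 below (8.06%). The log2 fold was 1.95 (SE 0.13), or 3.87 times (edgeR, adjusted p = 7.43e-10). IGF1R (ENSGALG00000040651, chromosome 10, 17124105 to 17264663), the receptor kinase for both IGFs, averaged 22.9 ± 3.50 CPM in pituitary libraries and 14.4 ± 3.44 in hypothalamus libraries (SD, n = 10 each). Its log2 fold was 0.68 (SE 0.14; edgeR, adjusted p = 0.000205), and the tissues overlapped only through hypothalamus high RFI library 5 (19.4 CPM) and pituitary high RFI library 2 (18.3 CPM). IGF2R (ENSGALG00000011621, chromosome 3, 45589705 to 45644012) encodes the mannose 6-phosphate receptor, which clears IGF2 in mammals, whereas the chicken protein does not bind IGF2 with high affinity. It averaged 100.03 ± 12.1 CPM in pituitary libraries and 110.5 ± 10.3 in hypothalamus libraries, a log2 fold of -0.14 (SE 0.07; edgeR, adjusted p = 0.0781). Without the 5 libraries set apart it passed at a log2 fold of -0.26 (adjusted p = 0.00285; 0.00285 to 0.146 over 26 alternatives).

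SOCS2 (ENSGALG00000050619, chromosome 1, 44923615 to 44927604) showed the widest gap between tissues of the 10 genes. It had 33.1, 99.7 and 172 CPM as lowest, median and highest value in pituitary libraries, against 1.82, 2.36 and 2.83 in hypothalamus libraries. No library of one tissue entered the range of the other. The log2 fold was 5.41 (SE 0.29), or 42.5 times (edgeR, adjusted p = 6.75e-11), and 33 of the 16747 genes had a smaller p. Hypothalamus values rest on 20 to 32 reads per library and pituitary values on 410 to 2229. The lowest SOCS2 in the pituitary, 33.1 CPM, came from low RFI library 1, where the level of growth hormone transcript was lowest too (GH, 5565 CPM against 20825 to 52992 in the other 9). Among the other pituitary libraries the orders of SOCS2 and GH differed. Low RFI library 5 had the highest GH, with SOCS2 at 149 CPM. High RFI library 5 had the highest SOCS2, with GH at 28794 CPM. High RFI library 1 had GH at 51505 CPM and SOCS2 at 74.7 CPM. Without pituitary low RFI library 1 the log2 fold of SOCS2 was 5.51, and without the 5 libraries set apart it was 5.81. All 10 pituitary endocrine markers were also called higher in the pituitary, the tissue they were listed to mark. Of the 10, 6 passed the low-count filter in the hypothalamus libraries alone. The part of these markers in the SOCS2 and GHR differences was not tested.

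Among binding proteins, IGFBP2, a main form in brain and spinal fluid, fell in the pituitary. IGFBP2 (ENSGALG00000011469, chromosome 7, 23255548 to 23307791) had 40.4, 73.3 and 109.8 CPM as lowest, median and highest value there, against 103.7, 131 and 176 in the hypothalamus, with a log2 fold of -0.81 (SE 0.17; edgeR, adjusted p = 0.000306). The overlap came from pituitary low RFI library 2 and high RFI library 2, at 108.4 and 109.8 CPM, and hypothalamus high RFI library 2, at 103.7. Astrocyte and tanycyte markers (9 of 10 listed) summed to 961 to 4401 CPM in pituitary libraries and 5454 to 8639 in hypothalamus libraries, with 7 of 9 lower in the pituitary, 2 higher and none at 0; their part in the IGFBP2 difference was not tested. IGFBP5 (ENSGALG00000011468, chromosome 7, 23232312 to 23248990), a matrix-bound form cut by the protease PAPPA2, is the neighbour of IGFBP2. The 2 genes face each other tail to tail, 6557 bases apart. IGFBP5 averaged 18.2 ± 6.90 CPM in pituitary libraries and 14.4 ± 3.54 in hypothalamus libraries (SD, n = 10 each), and its log2 fold was 0.31 (SE 0.19; edgeR, adjusted p = 0.160), opposite in sign to that of IGFBP2.

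IGFBP3 and IGFBP4 rose in the pituitary. IGFBP3 (ENSGALG00000037940, chromosome 2, 54930529 to 54947966), the chief carrier in mammalian blood, averaged 16.8 ± 3.001 CPM in pituitary libraries and 9.69 ± 1.60 in hypothalamus libraries (SD, n = 10 each). Its log2 fold was 0.79 (SE 0.12; edgeR, adjusted p = 1.62e-05), and pituitary low RFI library 1, at 11.5 CPM, was the pituitary library inside the hypothalamus range of 7.50 to 12.2. IGFBP4 (ENSGALG00000040672, chromosome 27, 7262040 to 7267335) mostly blocks IGF action until the protease PAPPA cuts it. It averaged 39.4 ± 12.1 CPM in pituitary libraries and 23.8 ± 4.76 in hypothalamus libraries, with overlapping ranges and a log2 fold of 0.73 (SE 0.17; edgeR, adjusted p = 0.000713).

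IGFBP7 (ENSGALG00000037332, chromosome 4, 49164561 to 49178507) binds IGFs weakly and is found in vessel walls. It averaged 257 ± 60.1 CPM in pituitary libraries and 201 ± 169 in hypothalamus libraries (SD, n = 10 each), and its log2 fold of 0.41 (SE 0.26) did not pass (edgeR, adjusted p = 0.176). The hypothalamus spread came from low RFI library 2, which held 679 CPM against 123 to 189 in the other 9. Without that library IGFBP7 passed, at a log2 fold of 0.78 (SE 0.14; adjusted p = 8.02e-05), and without the 5 libraries set apart at 0.93 (adjusted p = 1.8e-06; 1.8e-06 to 0.295 over 26 alternatives). Vessel markers, 12 of 15 listed genes, summed to 552 to 665 CPM in the pituitary and 623 to 715 in the hypothalamus. None of them was at 0. Of the 12, 5 rose in the pituitary and 5 fell. Their part in the IGFBP7 values was not tested. IGFBP7 and POLR2B, on opposite strands, overlap by 232 bases; whether counting used strand is not given, so reads there cannot be told apart.

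**Figure D2:**
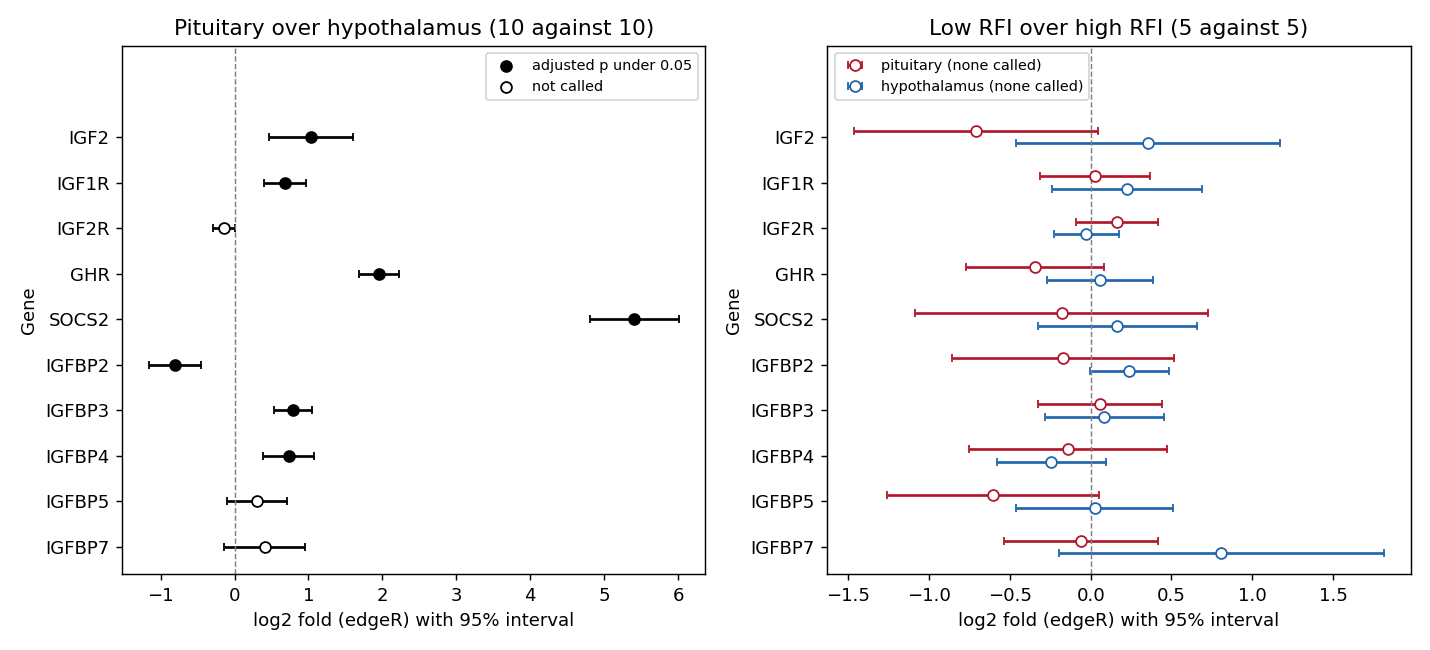
Log2 folds of the 10 genes with 95% intervals, left for pituitary over hypothalamus and right for low over high RFI in each tissue. On the left 7 genes are filled as called, with SOCS2 at 5.41 and IGFBP2 at -0.81; on the right no gene is called.

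Set against each other per length, IGFBP7 held the largest mean share of the 5 binding protein transcripts in the pituitary and IGFBP2 in the hypothalamus; shares were not tested. Their summed level was 171 ± 37.6 FPKM in the pituitary and 165 ± 63.8 in the hypothalamus (SD, n = 10 each). The hypothalamus mean includes low RFI library 2, which summed to 340 FPKM against 120 to 174 in the other 9. Pituitary libraries summed to 125 to 232 FPKM. IGFBP7 took 45.6% ± 4.91 of the sum in the pituitary and 34.6% ± 10.0 in the hypothalamus. IGFBP2 took 20.7% ± 6.66 in pituitary libraries and 40.1% ± 6.05 in hypothalamus libraries. The shares of IGFBP3, IGFBP4 and IGFBP5 were 9.82%, 11.4% and 12.5% in the pituitary and 6.12%, 7.95% and 11.2% in the hypothalamus. Pituitary low RFI library 1 stood nearest to the hypothalamus, with IGFBP2 at 35.9% against 14.1 to 26.5% in the other pituitary libraries. Hypothalamus low RFI library 2 had IGFBP7 at 62.5% against 27.6 to 34.0% in the other 9. Another binding protein gene, IGFBP1, an insulin-regulated form made mainly by liver, was low, at 1.25 ± 0.445 CPM in pituitary libraries and 4.06 ± 1.80 in hypothalamus libraries, and fell in the pituitary (log2 fold -1.70; edgeR, adjusted p = 2.06e-05).

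**Figure D3:**
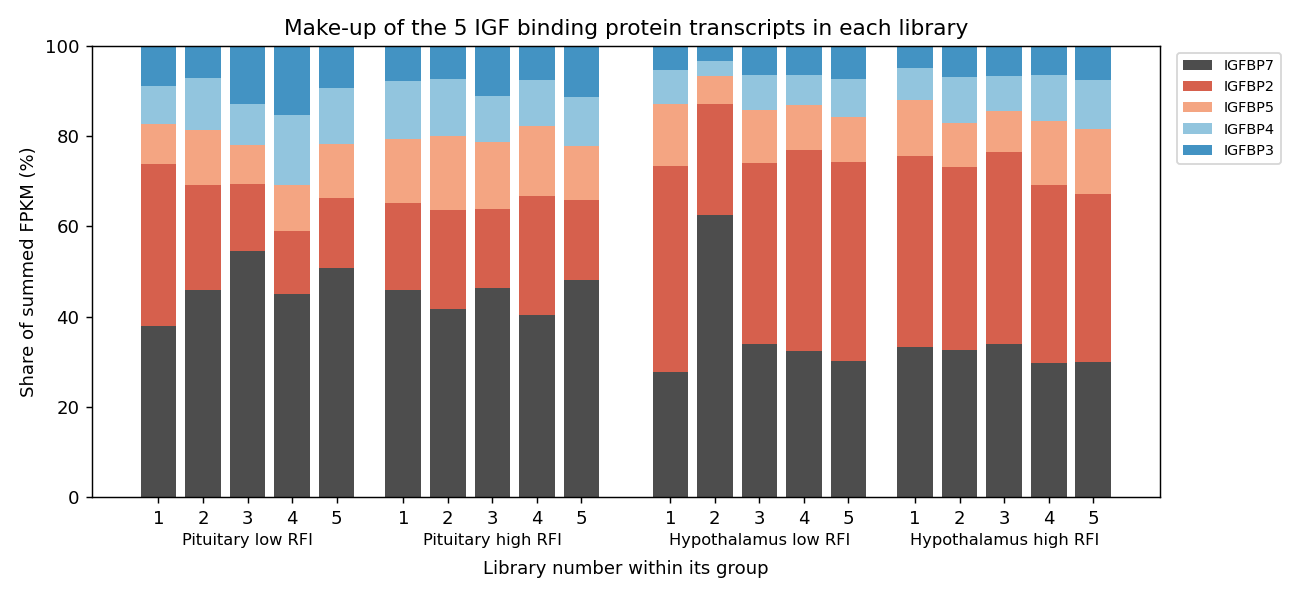
Share of each binding protein gene in the summed FPKM of IGFBP2, IGFBP3, IGFBP4, IGFBP5 and IGFBP7, 1 bar per library. IGFBP7 leads in the pituitary bars and IGFBP2 in the hypothalamus bars, except for hypothalamus low RFI library 2, where IGFBP7 takes 62.5%.

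The other genes of the growth hormone and IGF pathway were taken from a list of 52, of which 47 were in the table and 45 were tested between tissues. In the pituitary 21 rose and 13 fell, against the 38.3% and 32.5% of all genes, and the median log2 fold was 0.59. Without the 5 libraries set apart, 22 rose and 14 fell of 46 tested. The smallest p-values belonged to the GHRH receptor gene GHRHR (log2 fold 9.94), IGF2BP2, which binds IGF2 mRNA (2.91), GH itself (13.25), the PI3-kinase subunit gene PIK3R1 (2.63), the cytokine-signalling brake CISH (2.90), the prolactin receptor gene PRLR (2.93), the somatostatin receptor gene SSTR5 (1.80) and STAT3 (0.91). Each rose in the pituitary (edgeR, adjusted p from 5.82e-12 for GHRHR to 2.61e-07 for STAT3). CISH, like SOCS2 a target of growth hormone signalling, averaged 31.7 ± 10.4 CPM in pituitary libraries and 4.31 ± 1.60 in hypothalamus libraries (SD, n = 10 each). GHRHR averaged 181 ± 85.4 CPM in pituitary libraries and 0.190 ± 0.127 in hypothalamus libraries, where it had 0 to 4 reads each.

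The RFI comparison in the hypothalamus asked whether birds that eat less than predicted differ in these genes where appetite and growth hormone release are governed. No member passed in low against high RFI (0 of 10; 0% of 15179 genes called by edgeR). No member had an unadjusted p under 0.05 (0, against 4.8% of all genes), and the groups overlapped for each member, where 0.85% of all genes did not overlap. Of the 10, 8 had a log2 fold above 0, with a median of 0.12, and 7860 of the 15179 genes did so, with a median of 0.01. Without low RFI library 2 the median was 0.043 for the 10 and -0.0029 for all genes. DESeq2 and limma-voom also called 0 members and gave 0 an unadjusted p under 0.05, DESeq2 over 9 because it gave IGFBP7 no p. Over all genes, 728 had an unadjusted p under 0.05 in edgeR, and DESeq2 called 5 genes and limma-voom 0.

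IGFBP7 had the largest hypothalamus difference, a log2 fold of 0.81 (SE 0.46; edgeR, adjusted p = 0.964). Its values were 123, 679, 189, 159.6 and 125 CPM in low RFI libraries 1 to 5, against 169, 126, 139.5, 146 and 153 in high RFI libraries 1 to 5. Low RFI library 2, with the choroid plexus and pineal transcripts, lies apart, and the other 4 low RFI values span the high RFI ones. Without it the log2 fold was 0.02 (SE 0.13). IGFBP2 had 134, 176, 147, 145 and 121 CPM in low RFI, against 142, 104, 115, 128 and 125 in high RFI. Its log2 fold was 0.24 (SE 0.11; edgeR, adjusted p = 0.964), and 0.15 without low RFI library 2.

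IGF2 had 6.35, 4.15, 4.17, 3.83 and 3.11 CPM in hypothalamus low RFI libraries, against 2.34, 1.83, 2.03, 3.35 and 7.32 in high RFI libraries. High RFI library 5 was above all low RFI libraries, and 3 of the other high RFI libraries were below them. The log2 fold was 0.36 (SE 0.38; edgeR, adjusted p = 0.975), and 0.85 without high RFI library 5 (adjusted p = 0.920). It was 0.18 when low RFI library 1 was left out, and leaving out high RFI library 2 or 3 gave 0.20 or 0.22. High RFI library 5 also had the highest summed level of the 13 meninges and fibroblast markers in the hypothalamus. That sum was 1347 CPM, against 431 to 1229 in the other 9. Of the 13 markers, 12 had a log2 fold above 0 in low RFI and 0 were called. Log2 folds were above 0 for 7 of 9 neuron, 5 of 6 endocrine and 5 of 12 vessel markers tested. The same held for 4 of 4 choroid plexus and pineal, 3 of 9 astrocyte and tanycyte, and 2 of 7 microglia and macrophage markers. Of 6 oligodendrocyte markers, 0 had a log2 fold above 0. In these lists 0 markers were called. The part of any of these markers in the IGF2 values was not tested. In the hypothalamus, library 5 of high RFI was the highest of 10 for IGF2, IGF1R, GHR, IGFBP3, IGFBP4 and IGFBP5.

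For the other members in the hypothalamus, log2 folds ran from -0.24 (SE 0.15) for IGFBP4 to 0.23 (SE 0.21) for IGF1R. With 1 library left out, the IGF1R fold was lowest at 0.09 (high RFI library 1 left out), next lowest at 0.14 (high RFI 4) and highest at 0.40 (high RFI 5). The IGFBP4 fold was lowest at -0.33 (high RFI 3 left out) and nearest 0 at -0.14 (high RFI 5). SOCS2 averaged 2.44 ± 0.440 CPM in low RFI libraries and 2.18 ± 0.313 in high RFI libraries, and GHR 14.05 ± 1.63 in low RFI libraries and 13.5 ± 2.55 in high RFI libraries (SD, n = 5 each). The 95% interval of the GHR log2 fold was -0.27 to 0.39. Among the other pathway genes (42 tested, 0 called), the smallest p-values were those of FOXO1, a transcription factor inhibited by insulin and IGF signalling (log2 fold -0.34), GHRH, the peptide that releases growth hormone (0.97), IGF2BP2 (0.33) and STC2, an inhibitor of PAPPA proteases (0.78). Each had an edgeR adjusted p of 0.964.

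In the pituitary, the same comparison asked about the gland that releases growth hormone. No member passed in low against high RFI (0 of 10; 0% of 15786 genes called by edgeR). None had an unadjusted p under 0.05 (0, against 1.88% of all genes; DESeq2 0 members and limma-voom 1, IGFBP5), and groups overlapped for each, where 0.253% of all genes did not overlap. Over all genes, 296 had an unadjusted p under 0.05 in edgeR, and DESeq2 and limma-voom called 0. Of the 10, 3 had a log2 fold above 0, with a median of -0.16, and 8754 of the 15786 genes did so, with a median of 0.02. Without low RFI library 1 the median was -0.0079 for the 10 and 0.0096 for all genes.

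The largest pituitary differences were those of IGF2 and IGFBP5, both lower in low RFI but short of the threshold. IGF2 had 2.99, 7.43, 7.46, 4.97 and 7.61 CPM in low RFI libraries 1 to 5, against 11.2, 15.6, 7.16, 5.04 and 11.02 in high RFI libraries 1 to 5. High RFI libraries 1, 2 and 5 exceeded each low RFI library, and libraries 3 and 4 fell inside the low RFI range. The log2 fold was -0.71 (SE 0.34; edgeR, adjusted p = 0.999), and it ranged from -0.87 to -0.48 when 1 library was left out. IGFBP5 had 9.13, 21.6, 9.35, 11.3 and 20.7 CPM in low RFI, against 22.2, 31.3, 19.6, 21.1 and 15.8 in high RFI. Low RFI libraries 1, 3 and 4 were under each high RFI value, and libraries 2 and 5 were inside the high RFI range. Its log2 fold was -0.61 (SE 0.30; edgeR, adjusted p = 0.999), and -0.81 to -0.44 when 1 library was left out.

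Meninges and fibroblast markers ran the same way as IGF2 and IGFBP5 in the pituitary. Their sum was 1187, 7926, 2445, 3536 and 7734 CPM in low RFI libraries, against 4512, 16016, 5945, 4726 and 4172 in high RFI libraries. Of the 13 markers tested, 12 had a log2 fold below 0 and 0 were called. Other lists also leaned to one side. Log2 folds above 0 were seen for 6 of 6 oligodendrocyte, 8 of 9 neuron and 5 of 5 choroid plexus and pineal markers tested. They were seen for 3 of 9 astrocyte and tanycyte, 3 of 12 vessel, 2 of 10 endocrine and 0 of 7 microglia and macrophage markers. Of these, 0 were called. The part of any of these markers in the differences of IGF2 and IGFBP5 was not tested. IGF2, GHR, IGFBP2, IGFBP4 and IGFBP5 were each highest in high RFI library 2 of the pituitary, the library with the highest marker sum. For GHR the next highest was 66.0 CPM in high RFI library 3, against 66.3. For IGFBP2 it was 108.4 CPM in low RFI library 2, against 109.8.

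Growth hormone receptor and SOCS2 did not separate the RFI groups in the pituitary. GHR had 27.6, 53.0, 64.7, 43.3 and 48.0 CPM in low RFI, against 50.4, 66.3, 66.0, 61.8 and 55.9 in high RFI, a log2 fold of -0.34 (SE 0.19; edgeR, adjusted p = 0.999). Low RFI library 1 was the lowest of the 10, and libraries 2 and 3 lay within the high RFI range. The GHR fold was -0.076 without the 4 pituitary libraries set apart, which left only libraries 3 and 5 in low RFI. SOCS2 had 33.1, 49.8, 133, 95.4 and 149 CPM in low RFI, against 74.7, 107.7, 104.0, 62.8 and 172 in high RFI. SOCS2 varied 5.18 times between the lowest and highest pituitary library, and its log2 fold was -0.18 (SE 0.41; edgeR, adjusted p = 0.999), or 0.30 without the 3 low RFI libraries and 1 high RFI library set apart. The remaining members had log2 folds from -0.17 (IGFBP2; -0.48 without those libraries) to 0.16 (IGF2R). Of the other pathway genes 45 were tested and 0 called; among the smallest p-values were those of GHRH (log2 fold -1.48), STC1 (1.28), another inhibitor of PAPPA proteases, and SOCS6 (0.24), each with an edgeR adjusted p of 0.999. In alternatives chosen after seeing the data, the GHRH fold was -0.78 without high RFI library 4. That library held 97.8 CPM, the highest GHRH level in the pituitary. The GHRH fold was -1.16 without low RFI library 2, which held the lowest level, 0.24 CPM. The STC1 fold was -0.077 without low RFI library 1, and that of SOCS6 was 0.15 without the same library. Without the libraries set apart the pituitary folds were -0.87 for GHRH, 0.10 for STC1 and 0.11 for SOCS6.

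**Figure D4:**
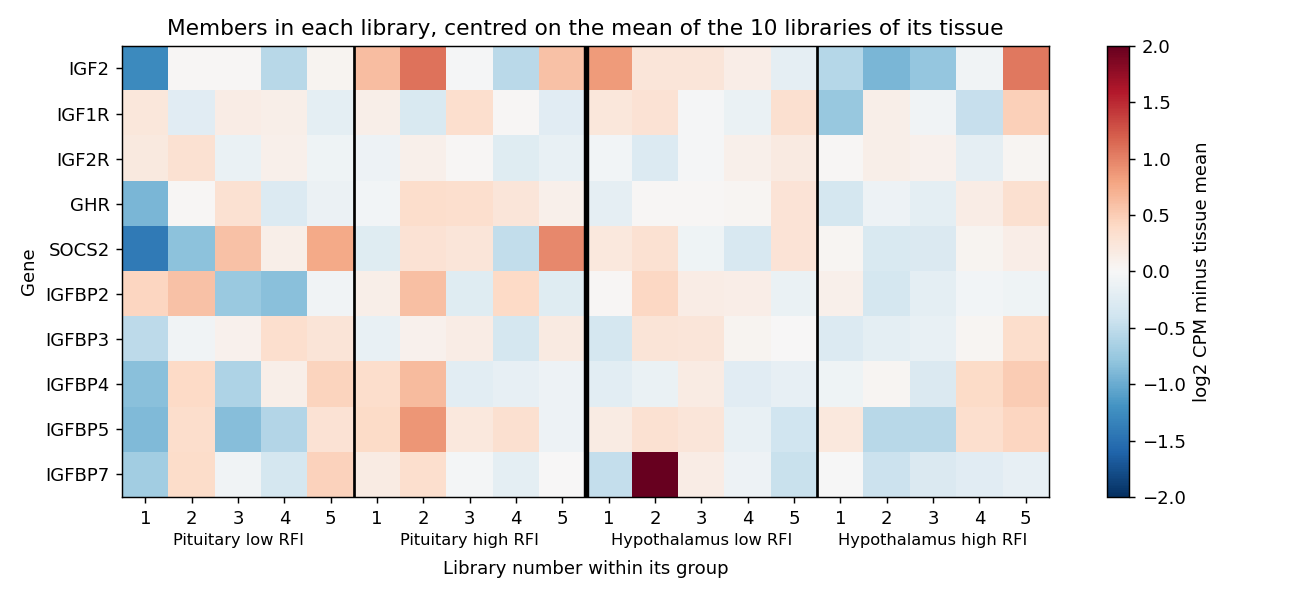
Log2 CPM of each gene in each library minus the mean of the 10 libraries of its tissue (red above, blue below). Pituitary low RFI library 1 is blue for IGF2, GHR, SOCS2, IGFBP3, IGFBP4, IGFBP5 and IGFBP7, and hypothalamus low RFI library 2 is dark red for IGFBP7.

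The pituitary fold minus the hypothalamus fold for low against high RFI was tested in 1 fit of all 20 libraries. No member passed (0 of 10; 0% of 16747 genes called by edgeR), and 0 had an unadjusted p under 0.05, against 2.34% of all genes (DESeq2 and limma-voom 1 member each, IGF2 in both). Over all genes, 392 had an unadjusted p under 0.05 in edgeR, and DESeq2 called 2 and limma-voom 0. IGF2 differed most, by a log2 value of -1.07 (SE 0.54; edgeR, adjusted p = 0.9999), with IGF2 lower in low RFI in the pituitary and higher in low RFI in the hypothalamus by fold, neither called. IGFBP7 came next at -0.86 (SE 0.53), and at -0.07 without hypothalamus low RFI library 2. For GHRH the difference was -2.43 (SE 0.94; edgeR, adjusted p = 0.9999), the smallest p among the other pathway genes, followed by IGF2BP3 (-0.48), STC1 (1.31) and IRS4 (0.20). The GHRH difference was -1.76 without pituitary high RFI library 4, and that of STC1 was -0.032 without pituitary low RFI library 1. Without the 5 libraries set apart, the difference was -0.031 for IGF2BP3 and 0.063 for IRS4.

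The members differed in how much they varied between libraries of 1 tissue. In the hypothalamus IGFBP7 and IGF2 had standard deviations of 0.73 and 0.65 on the log2 scale, above 93.3% and 90.5% of tested genes, and IGF2R had 0.14, above 14.8%. The IGFBP7 spread includes low RFI library 2, at 679 CPM. IGF2 had 21 to 82 reads per hypothalamus library, and IGF2R 968 to 1437. In the pituitary SOCS2 and IGF2 had 0.74 and 0.68, and IGF2R again the lowest of the 10 at 0.17. The genes whose centred profile over the 20 libraries lay nearest to that of IGF2 were the transporter gene SLC47A1, the Wnt inhibitor gene SFRP2 and SYNPO, each at a root mean square difference of 0.29 log2 units against a median of 0.68 over 11489 genes. For IGFBP2 they were METTL24 (0.19), EVL (0.20) and the lipase gene MGLL (0.20), against a median of 0.48.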

How the data were processed

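The authors deposited raw read counts per gene and FPKM for 28021 genes. Reads were aligned with HISAT2 2.0.5 to GRCg6a, and DESeq2 1.20.0 is listed, both per the submitters' processing notes; the counting tool and strand setting were not given in the sources used here. The deposited FPKM values equal count over listed gene length within each library, up to a library factor (largest relative deviation 5.22e-15). Counts were tested in R 4.3.3 with edgeR 4.0.16 (TMM, filterByExpr, robust quasi-likelihood, Benjamini-Hochberg over all genes tested). Low and high RFI were compared within each tissue; the tissues, and the difference between the tissue folds, were compared over all 20 libraries as 4 group means. Folds are low over high RFI and pituitary over hypothalamus. CPM used TMM over all 20 libraries. Median standard errors of log2 folds were 0.23 (pituitary RFI), 0.16 (hypothalamus RFI) and 0.16 (tissues).

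Alternatives were median-ratio scaling, no filter, DESeq2 1.42.0, limma-voom (limma 3.58.1), a replicate block, 1 fit of 20 libraries, leaving out each library, and leaving out 5 libraries together. Within groups, chi-square over degrees of freedom between libraries ran from 7.86 to 194.9, beyond sampling noise, and each library counted once. Steps were also run on simulated data, and the folds recovered there are not given. Members, lists and libraries set apart were chosen with earlier results of these data known. Named pathway genes are those of smallest p in a fixed list, up to 8 where they pass and otherwise 4, and profile neighbours the 3 nearest genes. A gene that this rule names is not reported here. IGFBP1 was named after its values were seen. The names of 4 listed genes were matched by alias, among them IGF1.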

Additional observations from a re-analysis of the deposited data

Results flagged for a closer look

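Of 40 sets of 5 libraries (10 genes in 4 groups), 3 held a library far from the other 4; chance alone gives about 1 in 20. IGFBP7 stood at 679.4 CPM in hypothalamus low RFI library 2, against 123 to 189 in the other 4. The same library held 25551 CPM of TTR and 1157 CPM of ASMT, transcripts of choroid plexus and pineal, and 8.40 CPM of IGFBP1, the highest of all libraries. IGF2 stood at 7.32 CPM in hypothalamus high RFI library 5, against 1.83 to 3.35 in the other 4. IGFBP4 stood at 26.26 CPM in hypothalamus low RFI library 3, against 20.0 to 21.4 in the other 4. The part of other cell types in these values was not tested.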

How the results depend on the processing

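Between tissues the calls of IGF2, IGF1R, GHR, SOCS2, IGFBP2, IGFBP3 and IGFBP4 held, with the same sign, under all 26 alternatives. IGF2R passed in 6 and IGFBP7 in 4 of them, and IGFBP5 in 0. Members called ran from 7 to 9 when 1 library was left out, and genes called from 11576 to 12341. The replicate block called 11574 genes and 8 members, adding IGFBP7 (log2 fold 0.55, adjusted p = 0.0229), and 0 genes in each of the RFI comparisons. The labels do not say which pools share birds, so the numbers were not taken as pairs. Correlations between same-numbered libraries ran from -0.26 to 0.34. In no set of groups did every library match its own number best. Such correlations cannot show whether pools share birds, because some libraries also held transcripts of other tissues.

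For low against high RFI no alternative called a member. In the pituitary the replicate block gave 2 members, GHR and IGFBP5, an unadjusted edgeR p under 0.05. The fit of 20 libraries gave 1 there, IGFBP5, and 1 in the hypothalamus, IGFBP7. With no filter IGFBP2 had such a p in the hypothalamus. Leaving out 1 library gave at most 1 such member in each tissue. DESeq2 called 5 genes in the hypothalamus and 2 for the pituitary fold minus the hypothalamus fold, where edgeR called 0 in each. DESeq2 gave IGFBP7 no p in the hypothalamus. Some uncalled folds changed sign. Leaving out the libraries set apart kept only libraries 3 and 5 of pituitary low RFI. Without the libraries set apart, the hypothalamus log2 fold was 0.026 for IGF2R and -0.052 for IGFBP5. The pituitary fold was then -0.0041 for IGF1R, -0.075 for IGF2R, 0.091 for IGFBP7 and 0.30 for SOCS2. The pituitary fold minus the hypothalamus fold was then -0.11 for IGF2R, 0.079 for IGFBP3, 0.069 for IGFBP7 and 0.19 for SOCS2. With all libraries it was -0.86 for IGFBP7 and -0.34 for SOCS2. With 1 library left out, hypothalamus folds ran from -0.079 to 0.026 for IGF2R, -0.015 to 0.15 for GHR and -0.091 to 0.14 for IGFBP5. Pituitary folds ran from -0.031 to 0.12 for IGF1R, -0.022 to 0.18 for IGFBP3, -0.27 to 0.021 for IGFBP4, -0.17 to 0.077 for IGFBP7 and -0.40 to 0.069 for SOCS2. The pituitary fold minus the hypothalamus fold ran from -0.13 to 0.086 for IGFBP3 and from -0.042 to 0.25 for IGFBP4. In alternatives chosen after seeing the data, the STC1 fold ran from -0.077 to 1.52 in the pituitary. Its pituitary fold minus its hypothalamus fold ran from -0.032 to 1.55. The cause was not tested. Group mean FPKM and CPM per kilobase differed by less than 1 SD in all 40 cases. Both rest on the same counts and gene lengths, so only the library factors are compared there. Depth limits IGF1 and insulin, with few reads in any library, and SOCS2 in the hypothalamus.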
